A study of Rattus norvegicus with 23 samples.

Results

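The 45 genes described here encode proteins that carry a cell through mitosis: the cyclin-dependent kinase CDK1 with its cyclins, the mitotic kinases, the kinetochore, the spindle assembly checkpoint, and the motors of the spindle and of cytokinesis. They were chosen by gene symbol, and the rule used no measured value, but earlier results of these data were known when it was set. Of the 45 symbols, 44 were found among the 30452 genes in the table of the rat samples, while Nek2 was not matched by symbol. Of these, 43 were among the 14777 genes that passed the filter on low counts and were tested. The remaining member, Foxm1, had at most 12 counts in any sample and is described by its counts. All 43 tested members other than Cdc25b had at least 10 counts in every sample.

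The study exposed rat kidney cells in monoculture to an acidic medium and asked which genes respond. NRK-52E is an established rat kidney cell line labelled epithelial and NRK-49F an established rat kidney fibroblast line. All cells were held for 24 h in medium without fetal calf serum, which the labels call a synchronization, and then for 48 h at pH 7.4 or at pH 6.0, reached with HCl. Both pH values of a line therefore share the serum-free period. There were 6 NRK-52E samples at each pH, 6 NRK-49F samples at pH 7.4 and 5 at pH 6.0, and poly(A) RNA was sequenced. The labels place the NRK-52E samples in sample groups 1 and 3 and the NRK-49F samples in sample groups 4 and 6, with 3 samples of each pH in a sample group, except that sample group 4 has 2 at pH 6.0. What a sample group stands for is not stated in the labels. No label says that samples came from separate cultures, so the p-values measure the spread between these samples.

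A dividing cell makes most of these proteins late in its cycle. CDK1 bound to cyclin B starts mitosis, the kinetochore ties each chromosome to spindle fibres, and the checkpoint holds the cell until every chromosome is attached. CDC20 then activates the anaphase-promoting complex, which destroys securin and cyclin B so that the chromosomes part. In resting cells many of these genes are held silent by the DREAM complex, which binds a promoter element called CHR, and in dividing cells B-MYB and FOXM1 activate them through the same element. NF-Y, which binds the CCAAT box, is a further activator of many of them. In RNA from whole cultures, fewer cells in mitosis and less of these RNAs per cell cannot be told apart.

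RefSeq promoters (assembly GRCr8, 250 bases before to 50 bases after the start of each gene) were at hand for 39 of the 45 members and for 27457 genes in all. The CHR core, TTTGAA or TTTAAA on either strand, stood in 32 of the 39 member promoters (82.1%), against 27.9% of all promoters. A CCAAT box on either strand stood in 29 (74.4%), against 37.7% of all. Both stood in 23 (59.0%), against 11.1%. A CHR core between 60 bases before and 30 bases after the start was found in 25 members (64.1%) and in 8.57% of all promoters. The 120 bases before the start are shown for 4 members that rose at pH 6.0 in both cell lines and 4 that fell in NRK-52E and rose in NRK-49F cells, because promoters of both sets hold these motifs. Capitals mark a CHR core (TTTGAA or TTTAAA, or their reverse complement) and a CCAAT box (CCAAT, or ATTGG on the reverse strand), each sequence is written 5′ to 3′ on the strand of the gene, and a CHR core may share bases with a CCAAT box. The first 4 rose in both lines, and they lie at chr20:19265173-19265292 (+ strand) for Cdk1, chr5:137255800-137255919 (- strand) for Cdc20, chr1:244536747-244536866 (+ strand) for Kif11 and chr1:143659361-143659480 (+ strand) for Prc1. The other 4 lie at chr2:33655226-33655345 (- strand) for Ccnb1, chr8:79981659-79981778 (- strand) for Ccnb2, chr3:74396719-74396838 (- strand) for Spc25 and chr2:226310937-226311056 (+ strand) for Cenpe.
Cdk1: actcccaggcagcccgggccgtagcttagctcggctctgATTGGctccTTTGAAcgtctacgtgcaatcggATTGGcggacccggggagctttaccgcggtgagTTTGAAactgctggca
Cdc20: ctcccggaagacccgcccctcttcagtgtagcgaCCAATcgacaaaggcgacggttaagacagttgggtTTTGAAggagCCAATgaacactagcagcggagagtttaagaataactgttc
Kif11: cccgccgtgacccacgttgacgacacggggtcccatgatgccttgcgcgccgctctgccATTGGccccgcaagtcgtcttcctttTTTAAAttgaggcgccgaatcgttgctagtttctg
Prc1: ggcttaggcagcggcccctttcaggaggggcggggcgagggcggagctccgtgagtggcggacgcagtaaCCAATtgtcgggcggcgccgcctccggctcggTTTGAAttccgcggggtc
Ccnb1: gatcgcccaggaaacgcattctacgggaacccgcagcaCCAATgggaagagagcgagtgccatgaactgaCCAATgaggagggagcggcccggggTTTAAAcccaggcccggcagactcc
Ccnb2: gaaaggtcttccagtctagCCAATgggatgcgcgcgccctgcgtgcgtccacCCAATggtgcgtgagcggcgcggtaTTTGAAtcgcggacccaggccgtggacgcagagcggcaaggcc
Spc25: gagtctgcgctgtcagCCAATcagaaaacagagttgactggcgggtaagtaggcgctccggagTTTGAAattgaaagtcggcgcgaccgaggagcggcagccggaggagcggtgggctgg
Cenpe: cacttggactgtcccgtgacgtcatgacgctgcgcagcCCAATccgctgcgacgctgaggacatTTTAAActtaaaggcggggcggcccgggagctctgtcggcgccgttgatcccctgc
Of the members with a promoter entry, a CHR core stood in 8 of the 9 that rose in NRK-52E cells, in 14 of the 16 that fell and in 10 of the 13 that were tested and not called there. A CCAAT box stood in 8, 13 and 7 of them. A match is a description of letters and not a measured binding site.

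Total counts per sample ranged from 16412564 to 34250535. Levels are given in FPM, the count per 1000000 counts of the TMM-scaled library size, and 3 counts correspond to 0.0839 to 0.203 FPM. FPM is not per length, so levels are compared between samples of a gene and not between genes. NRK-52E cells lacked the epithelial defining markers Cdh1, at 0 to 0.349 FPM, and Epcam, at 0 to 0.0455 FPM in their 12 samples, but had keratins. Krt8 was at 441 to 651 FPM in them at pH 7.4 and at 195 to 260 FPM at pH 6.0. Krt7 was at 16.5 to 32.4 FPM and then at 2.50 to 5.45 FPM. Of the 10 epithelial markers listed, 4 to 6 were at 0 in each NRK-52E sample, and their summed level was 463 to 683 FPM at pH 7.4 and 200 to 265 FPM at pH 6.0, mostly Krt8. In the NRK-49F fibroblasts the same sum was higher, at 668 to 1207 FPM at pH 7.4 and 438 to 697 FPM at pH 6.0. The 12 fibroblast markers summed to 4985 to 8162 FPM at pH 7.4 and 1842 to 3120 FPM at pH 6.0 in NRK-52E cells, mostly Col3a1, with 2 to 5 at 0. The fibroblast collagen gene Col1a2 was at 52.9, 15.4 and 10.9 FPM in the NRK-52E samples A021, A022 and A033, all at pH 7.4, and at 0.0546 to 0.670 FPM in the other 9, against 2930 FPM or more in every NRK-49F sample. Counts are therefore also given without these 3 samples.

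At pH 6.0 the mitotic genes that were called rose or fell in NRK-52E cells in shares near those of all genes, and all rose in NRK-49F cells. In NRK-52E cells 11 of the 43 members tested rose and 17 fell (edgeR's quasi-likelihood test, Benjamini-Hochberg adjusted p under 0.05 over all genes). These are 25.6% and 39.5% of the members, next to 24.7% and 36.6% of all genes tested, of which 61.2% were called in either direction. The median log2 fold change was -0.25 over the members and -0.12 over all genes. In NRK-49F cells 33 members rose and none fell, where 14.5% of all genes rose, 14.4% fell and 28.9% were called, and the median was 0.79 over the members and 0.00088 over all genes. All 43 log2 fold changes lay above 0 in NRK-49F cells, from 0.059 for Ect2 to 1.88 for Pttg1.

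The NRK-52E split depended on the samples in the model, and the NRK-49F count on single samples. With NRK-52E samples alone in the model, which moved the median of all genes to -0.0023, 12 members rose and 12 fell. That fit had its own filter, scaling and estimate of the spread, and the part of each was not tested. Without A021, A022 and A033, 4 members rose (Cdk1, Zwint, Cdc20 and Kif11) and the same 17 fell. At pH 7.4 that left A023 of sample group 1 and A034 and A035 of sample group 3. The sample groups, which differed in these genes, were thus unequally represented between the pH values. The shares of all genes called in these NRK-52E fits are not given here, so their counts are not read as particular to the members. In NRK-49F cells, leaving out A042, which held the highest level of 29 of the 43 members among the 5 samples at pH 6.0, left 24 rises. The 9 members that lost their call without it, at edgeR adjusted p of 0.0535 to 0.131, were Aurka, Bub1b, Ccnb1, Cenpn, Mad2l1, Plk1, Spc25, Tpx2 and Ttk. Their log2 fold changes without A042 were still 0.48 to 0.91.

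**Figure D1:**
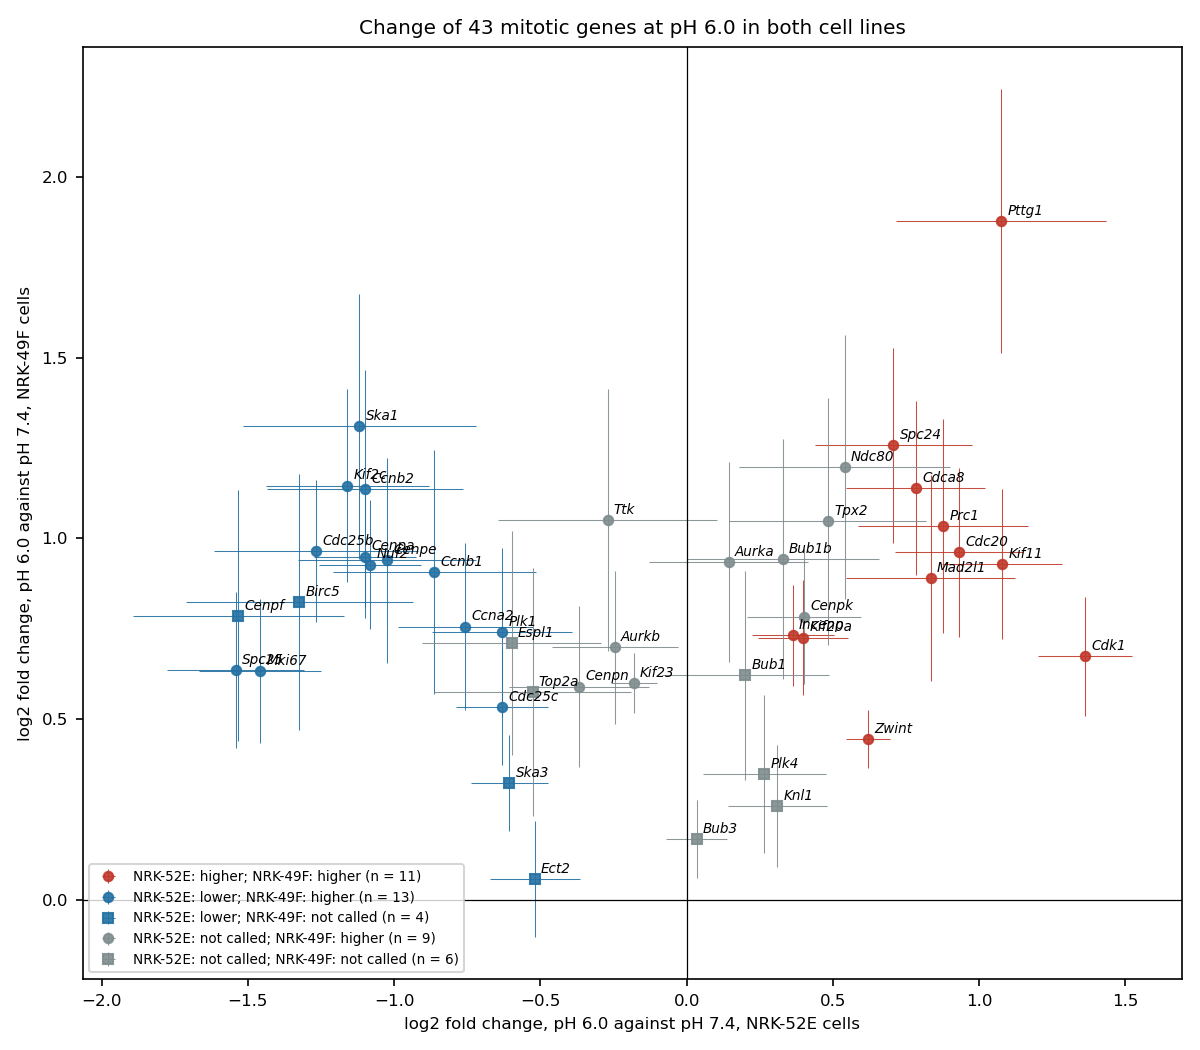
Log2 fold change from pH 7.4 to pH 6.0 in NRK-52E cells (horizontal axis) and NRK-49F cells (vertical axis) for the 43 members tested, with bars of 1 standard error. All points lie above 0 on the vertical axis, while on the horizontal axis they spread from -1.54 (Spc25) to 1.36 (Cdk1).

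Set side by side, 11 members rose in both lines: Cdc20, Cdca8, Cdk1, Incenp, Kif11, Kif20a, Mad2l1, Prc1, Pttg1, Spc24 and Zwint. Another 13 fell in NRK-52E and rose in NRK-49F cells: Ccna2, Ccnb1, Ccnb2, Cdc25b, Cdc25c, Cenpa, Cenpe, Kif2c, Mki67, Nuf2, Plk1, Ska1 and Spc25. Birc5, Cenpf, Ect2 and Ska3 fell in NRK-52E cells without a call in NRK-49F cells. The 9 members Aurka, Aurkb, Bub1b, Cenpk, Cenpn, Kif23, Ndc80, Tpx2 and Ttk rose in NRK-49F cells only as far as calls go, and Bub1, Bub3, Espl1, Knl1, Plk4 and Top2a were called in neither line. Of all 14777 genes, 6.94% rose in both lines and 2.94% fell in NRK-52E and rose in NRK-49F cells. The difference between the 2 pH changes had its own contrast in the model, which 23 members passed, where 41.4% of all genes did. In 22 of them, including all 13 with opposite calls, the change was lower in NRK-52E cells (24.7% of all genes). In Cdk1 alone among the members it was higher in NRK-52E cells (16.8% of all genes).

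Cdk1, the kinase that drives entry into mitosis, went against its own cyclins in NRK-52E cells. Cdk1 (ENSRNOG00000000632, chromosome 20) ranged from 17.2 to 30.8 FPM (median 22.3) in NRK-52E cells at pH 7.4 and from 46.4 to 75 FPM (median 57.4) at pH 6.0. No sample at pH 6.0 was as low as any at pH 7.4. Its log2 fold change was 1.36 (standard error 0.16, edgeR adjusted p = 1.21e-07), a 2.57-fold rise. In NRK-49F cells Cdk1 ranged from 37.0 to 59.2 FPM (median 44.7) at pH 7.4 and was 93.4, 64.3, 73.6, 76.4 and 58.8 FPM at pH 6.0. These ranges overlapped only through A056 and A052, and the log2 fold change was 0.67 (standard error 0.16, edgeR adjusted p = 0.00308). The rise in NRK-52E cells was larger by 0.69 on the log2 scale (standard error 0.23, edgeR adjusted p = 0.0192).

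The cyclins and CDC25 phosphatases, which bind and activate CDK1, all fell in NRK-52E and rose in NRK-49F cells. Ccnb2, cyclin B2 (ENSRNOG00000063216, chromosome 8), was at 5.01, 4.57 and 7.32 FPM in sample group 1 and 14.9, 18.1 and 13.6 FPM in sample group 3 of NRK-52E cells at pH 7.4. At pH 6.0 it was at 3.61, 1.97 and 2.82 FPM in sample group 1 and 6.34, 8.05 and 6.86 FPM in sample group 3. Every sample at pH 6.0 was below every sample of its own sample group at pH 7.4, but the pooled ranges overlapped. The log2 fold change was -1.10 (standard error 0.34, edgeR adjusted p = 0.00661). In NRK-49F cells Ccnb2 ranged from 10.6 to 21 FPM (median 14.4) at pH 7.4 and was 37.4, 29.6, 35.4, 32.9 and 29.6 FPM at pH 6.0, with no overlap and a log2 fold change of 1.14 (standard error 0.33, edgeR adjusted p = 0.0112). The difference between the lines was -2.24 (standard error 0.47, edgeR adjusted p = 0.000503).

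Ccna2 (cyclin A2) had log2 fold changes of -0.76 in NRK-52E and 0.76 in NRK-49F cells, and Ccnb1 (cyclin B1) of -0.86 and 0.91. The fall of Ccnb1 lost its call when any of A024, A025, A026, A033, A034 or A035 was left out (edgeR adjusted p up to 0.102), and its rise in NRK-49F cells without any of 10 single samples (up to 0.131). Cdc25c changed by -0.63 and 0.53. Cdc25b changed by -1.27 and 0.96, but at very different levels: it was at 0.0873 to 0.981 FPM in the 12 NRK-52E samples and at 16.8 to 41.9 FPM in the 11 NRK-49F samples. Its counts in NRK-52E cells were as low as 3, and at pH 7.4 Cdc25b was at 0.951 FPM in A021, with the highest Col1a2, and at 0.981 FPM in A023, with Col1a2 at 0.415 FPM.

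Among the mitotic kinases of the centrosome and spindle, Plk1, which matures the centrosome and takes part in most steps of mitosis, fell in NRK-52E cells (log2 fold change -0.63) and rose in NRK-49F cells (0.74). Its median went from 6.01 to 3.76 FPM in NRK-52E and from 12.1 to 18.1 FPM in NRK-49F cells. The fall lost its call without A024, A025, A026, A033 or A034 (edgeR adjusted p up to 0.100). Aurka, the Aurora kinase of the spindle poles, had 4.52 to 8.83 FPM at pH 7.4 and 3.39 to 11.6 FPM at pH 6.0 in NRK-52E cells, and a log2 fold change of 0.14 that was not called. In NRK-49F cells it went from a median of 7.88 FPM to 21.8, 12, 13.4, 16.4 and 10.6 FPM, a rise of 0.93 on the log2 scale. Plk4, which starts centriole duplication, was called in neither line (0.27 and 0.35).

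The chromosomal passenger complex corrects wrong attachments of chromosomes and later steers cytokinesis, and its 4 members did not move together in NRK-52E cells. Birc5 (survivin, ENSRNOG00000050819, chromosome 10) ranged from 2.58 to 7.41 FPM (median 5.07) at pH 7.4 and from 0.850 to 4.71 FPM (median 1.48) at pH 6.0. Only A036 and A038 at pH 6.0 reached into the range at pH 7.4, and the log2 fold change was -1.32 (standard error 0.39, edgeR adjusted p = 0.00495). Cdca8 (borealin) rose instead, from a median of 7.85 to 14.2 FPM (log2 fold change 0.78). Incenp, the scaffold, rose by 0.36 on the log2 scale, a call lost without A021, A023, A033, A036, A037 or A038 (edgeR adjusted p up to 0.0888), and Aurkb, the kinase of the complex, changed by -0.25 without a call. In NRK-49F cells Aurkb, Incenp and Cdca8 rose by 0.70, 0.73 and 1.14, while Birc5, at 7.07 to 23.5 FPM and then 35.5, 18.7, 22.7, 27.5 and 16.7 FPM, had a log2 fold change of 0.82 and missed the threshold (edgeR adjusted p = 0.0845).

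Of the 5 checkpoint genes, only Mad2l1 was called in NRK-52E cells. Mad2l1 encodes MAD2, which holds back CDC20 until chromosomes are attached. It was at 3.36, 2.31 and 3.02 FPM in sample group 1 and 5.96, 5.34 and 6.40 FPM in sample group 3 at pH 7.4, and at 3.35, 4.59 and 4.28 and then 12.5, 13.1 and 9.22 FPM at pH 6.0. The rise was clear of overlap in sample group 3 and not in sample group 1, where A024 was below A021. The log2 fold change was 0.83 (standard error 0.29, edgeR adjusted p = 0.0155), and without A036 or A037 the call was lost (up to 0.0611). Bub1, Bub1b, Bub3 and Ttk, the other checkpoint kinases and their partners, had log2 fold changes of 0.20, 0.33, 0.034 and -0.27 without a call. In NRK-49F cells Bub1b, Mad2l1 and Ttk rose by 0.94, 0.89 and 1.05. Bub1 (0.62) and Bub3 (0.17) did not pass, and Bub3 stayed within 43.3 to 70.8 FPM over all 23 samples.

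In the outer kinetochore, which grips the spindle fibres, subunits of the same complex changed in opposite directions in NRK-52E cells. NDC80, NUF2, SPC24 and SPC25 form a complex of 4 proteins. Spc25 (ENSRNOG00000006731, chromosome 3) ranged from 2.45 to 4.69 FPM (median 3.60) at pH 7.4 and from 0.929 to 1.57 FPM (median 1.19) at pH 6.0. The ranges were apart, and its log2 fold change of -1.54 (standard error 0.23, edgeR adjusted p = 4.64e-06) was the largest fall among the members. Nuf2 (ENSRNOG00000002711, chromosome 13) fell from 9.36 to 18.9 FPM (median 13.4) to 5.52 to 7.45 FPM (median 6.78), also without overlap (log2 fold change -1.08, standard error 0.17, edgeR adjusted p = 1.01e-05). Spc24 rose from a median of 4.79 to 8.57 FPM (log2 fold change 0.71), a call lost without A021, A022, A023 or A038 (edgeR adjusted p up to 0.0680). Ndc80 had a median of 4.95 FPM at pH 7.4 and 7.33 FPM at pH 6.0, with a log2 fold change of 0.54 that was not called.

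In NRK-49F cells all 4 of these subunits rose, Ndc80 by 1.2, Nuf2 by 0.93, Spc24 by 1.26 and Spc25 by 0.64 on the log2 scale. The call of Spc25 there was lost without any of 6 single samples (A039, A040, A042, A053, A054 and A055, edgeR adjusted p up to 0.114). The contrast between the lines passed for Nuf2 (-2.01) and Spc25 (-2.18) and not for Ndc80 (-0.66) or Spc24 (-0.55). Ska1 and Ska3 belong to the SKA complex, which holds kinetochores to shrinking fibres. Ska1 fell by 1.12 in NRK-52E cells, a call lost without A033 (edgeR adjusted p = 0.0632), and rose by 1.31 in NRK-49F cells, while Ska3 changed by -0.61 (called) and 0.32 (not called). Knl1, the checkpoint platform, was called in neither line (0.31 and 0.26).

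Zwint, which brings the RZZ complex of the checkpoint to the kinetochore, was the most uniform riser. In NRK-52E cells it was at 112 to 122 FPM (median 120.1) at pH 7.4 and at 157 to 207 FPM (median 185) at pH 6.0. In NRK-49F cells it was at 67.4 to 76.6 FPM and then at 109, 90.1, 103, 90.8 and 93.3 FPM. Neither line showed overlap, and the log2 fold changes were 0.62 and 0.45 (standard error 0.08 each, edgeR adjusted p = 2.33e-07 and 0.000161).

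The centromere proteins fell or stayed without a call in NRK-52E cells. Cenpf (ENSRNOG00000003388, chromosome 13), a large protein that coats kinetochores in mitosis, was at 5.99, 3.66 and 7.24 FPM in sample group 1 and 15.2, 17.6 and 9.62 FPM in sample group 3 at pH 7.4. At pH 6.0 it was at 1.12, 1.37 and 1.92 and at 5.92, 5.24 and 4.98 FPM. The ranges were apart within each sample group and overlapped when pooled, and the log2 fold change was -1.53 (standard error 0.36, edgeR adjusted p = 0.000792). Cenpa, the histone that marks centromeres, ranged from 3.55 to 7.85 FPM at pH 7.4 and from 1.86 to 3.51 FPM at pH 6.0 without overlap (log2 fold change -1.10, edgeR adjusted p = 8.56e-06), and Cenpe, a kinetochore motor, fell by 1.02 on the log2 scale. Cenpk and Cenpn, of the inner kinetochore network, were not called (0.40 and -0.37).

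In NRK-49F cells Cenpa, Cenpk, Cenpn and Cenpe rose by 0.95, 0.78, 0.59 and 0.94 on the log2 scale. The rise of Cenpn lost its call without any of 12 single samples (edgeR adjusted p up to 0.121). Cenpf was at 11.3 to 19.2 FPM at pH 7.4 and at 26.4, 28.2, 23.5, 24.1 and 25.9 FPM at pH 6.0 without overlap, but its log2 fold change of 0.79 missed the threshold (edgeR adjusted p = 0.0935). With sample group as a term in the model 39 members rose in NRK-49F cells. No share of all genes is set beside this count, and the NRK-52E count under that model is not given here.

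Cdc20 and Pttg1, which act at the start of anaphase, rose in both lines. Cdc20 (ENSRNOG00000028415, chromosome 5) was at 21.7, 23.8 and 26.5 FPM in sample group 1 and 32.4, 43 and 34.9 FPM in sample group 3 of NRK-52E cells at pH 7.4, and at 40.3, 39.3 and 44.2 and then 71.1, 75 and 77.1 FPM at pH 6.0. Each sample group rose without overlap, by 0.93 on the log2 scale in all (standard error 0.22, edgeR adjusted p = 0.000774). In NRK-49F cells Cdc20 ranged from 8.54 to 18.3 FPM and was then at 33.1, 20.7, 20.5, 24.4 and 17.5 FPM, a log2 fold change of 0.96 (standard error 0.23, edgeR adjusted p = 0.00304), with A056 below A052 and the other 4 above every control. Pttg1 (ENSRNOG00000003802, chromosome 10) encodes securin, which blocks the protease that opens cohesin. In NRK-49F cells it went from 5.20 to 11.1 FPM (median 6.79) to 48.5, 18.9, 22.6, 26.6 and 16.6 FPM, the largest rise among the members (log2 fold change 1.88, standard error 0.36, edgeR adjusted p = 0.000372), with no overlap and with A042 far above the others.

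In NRK-52E cells Pttg1 was at 3.39, 2.96 and 5.36 FPM in sample group 1 at pH 7.4 and at 3.88, 4.21 and 5.76 FPM at pH 6.0. In sample group 3 it was at 5.46, 5.94 and 6.74 FPM and then at 17.5, 15.6 and 15.8 FPM. The rise stood in sample group 3, while the samples of sample group 1 overlapped and were not called on their own. The pooled log2 fold change was 1.08 (standard error 0.36, edgeR adjusted p = 0.0120), and the difference of the pH change between the sample groups was 1.18 on the log2 scale and not called. Espl1, the separase that securin blocks, was called in neither line (-0.60 and 0.71), although the contrast between the lines passed (-1.31, edgeR adjusted p = 0.0186).

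Among the motors and cytokinesis genes, Kif11, the motor that pushes the spindle poles apart, had 4.68 to 13.4 FPM (median 6.68) at pH 7.4 in NRK-52E cells and 12.2 to 23.2 FPM (median 17.3) at pH 6.0, a rise. Only A033, at 13.4 FPM, reached the lowest sample at pH 6.0, and the log2 fold change was 1.08 (standard error 0.21, edgeR adjusted p = 7.92e-05). In NRK-49F cells it rose by 0.93 without overlap. Prc1, which bundles the central spindle, rose by 0.88 and 1.03, and Kif20a, a motor of the central spindle, by 0.40 and 0.73, the former lost without A021, A022, A023 or A036 (edgeR adjusted p up to 0.0788). Kif2c, which takes spindle fibres apart at kinetochores, fell by 1.16 in NRK-52E and rose by 1.15 in NRK-49F cells (difference -2.31, standard error 0.39, edgeR adjusted p = 4.17e-05). Kif23, a cytokinesis motor, was at 42.6 to 51.8 FPM and then 38.3 to 48.0 FPM in NRK-52E cells (-0.18, edgeR adjusted p = 0.0506), and rose from 19.0 to 24.5 FPM to 36.1, 28.3, 34.5, 34.4 and 33.2 FPM in NRK-49F cells (0.60, edgeR adjusted p = 6.24e-06). Tpx2, the spindle assembly factor that activates Aurora A, rose in NRK-49F cells only as far as calls go (0.48 and 1.05), and Ect2, which triggers the contractile ring, fell in NRK-52E cells (-0.52 and 0.06).

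Mki67 (Ki-67, ENSRNOG00000028137, chromosome 1), the standard marker of cycling cells, fell in NRK-52E cells. It was at 12.5, 7.37 and 11.1 FPM in sample group 1 and 20.5, 19.6 and 11.9 FPM in sample group 3 at pH 7.4, and at 4.14, 3.71 and 4.51 and then 4.98, 7.67 and 5.23 FPM at pH 6.0. The ranges were apart in each sample group, and only A037 at pH 6.0 exceeded the lowest sample at pH 7.4. The log2 fold change was -1.46 (standard error 0.21, edgeR adjusted p = 1.86e-06). In NRK-49F cells Mki67 rose from 27.8 to 48.0 FPM (median 39.2) to 55.7, 64.3, 62.3, 52.9 and 64.9 FPM without overlap (log2 fold change 0.63, edgeR adjusted p = 0.0182). Top2a, the topoisomerase that untangles sister chromosomes, was called in neither line (-0.53 and 0.58).

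Foxm1, the transcription factor that drives many of these genes, was at the edge of detection. In NRK-52E cells at pH 7.4 its counts were 9, 2, 12, 5, 1 and 1, and at pH 6.0 they were 0, 0, 1, 1, 0 and 0. Its mean level was 0.192 ± 0.153 FPM at pH 7.4 and 0.0136 ± 0.0223 FPM at pH 6.0 (SD, n = 6 each), which differed in an exact two-sided permutation test (p = 0.00216, the smallest that 6 against 6 samples allow, adjusted p = 0.00433 over 2 tests). All samples at pH 6.0 were under 3 counts, as were A022, A034 and A035 at pH 7.4, so no size of the fall is given beyond these values. The lowest sample at pH 7.4 had 1 count (0.0545 FPM) and the highest at pH 6.0 also 1 (0.0524 FPM). In counts the 2 groups therefore touched, and only library size set them apart in FPM. In NRK-49F cells counts were 0 to 4 at pH 7.4 and 0 to 6 at pH 6.0, and no difference was detectable at this depth (exact permutation p = 0.883).

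**Figure D2:**
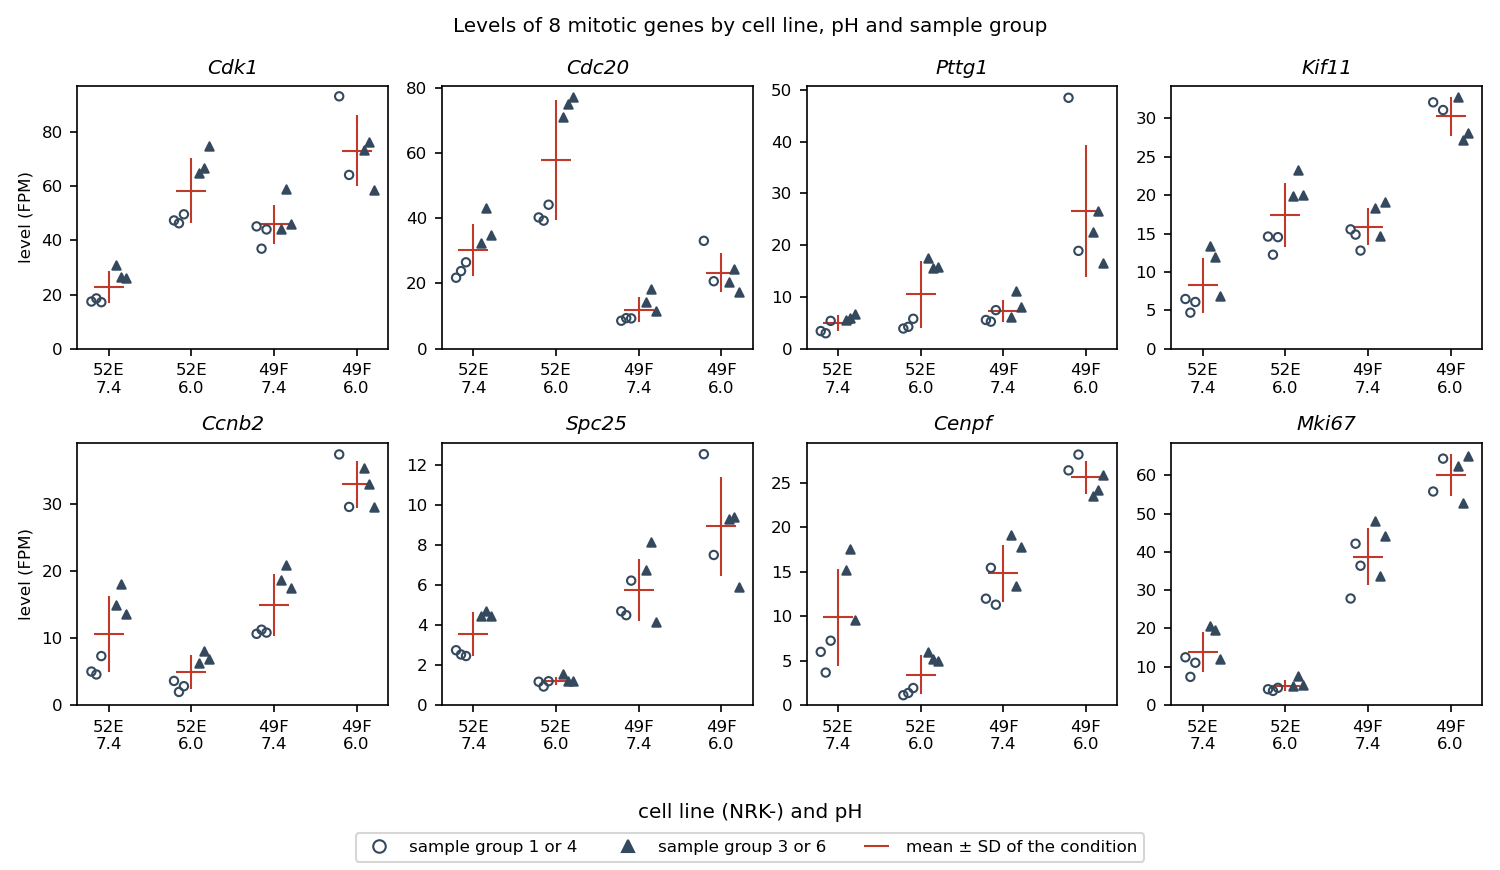
Levels in FPM (vertical axes, from 0) of 8 members in every sample by cell line and pH, with open circles for sample group 1 or 4, filled triangles for sample group 3 or 6, and the mean ± SD of each condition in red. In NRK-52E cells Cdk1, Cdc20 and Kif11 were higher at pH 6.0 and Ccnb2, Spc25, Cenpf and Mki67 lower, and in most panels sample group 3 stands above sample group 1.

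The sample groups of NRK-52E cells differed in these genes at the same pH, and nearly all members called were higher in sample group 3. At pH 7.4, 26 of 43 members were higher in sample group 3 than in sample group 1 and none was lower, where 1.25% of all 14777 genes were higher, 1.71% lower and 2.96% called. The median was 0.81 over the members and -0.016 over all genes, and 40 members lay above 0. At pH 6.0, 31 members were higher in sample group 3 and 1, Cdc25c, was lower, where 11.6% of all genes were higher, 16.2% lower and 27.8% called. The median was 0.90 over the members and -0.0063 over all genes. Of the members, 22 (51.2%) were higher in sample group 3 at both pH values, next to 0.758% of all genes.

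The count at pH 7.4 rested on few samples. It was 17 without A021, 14 without A022 and 16 without A033 or without A034. Without A021, A022 and A033 together, which left 1 sample in sample group 1 and assumed that it varied like the other conditions, 0 members were called and the median difference was 0.62. At pH 6.0, where no NRK-52E sample had over 1 FPM of Col1a2, the count was 27 to 32 in the leave-one-out runs. The summed fibroblast markers also differed between these sample groups without overlap, at 4985 to 5530 FPM in sample group 1 and 6825 to 8162 FPM in sample group 3 at pH 7.4, and at 1842 to 1929 and 2899 to 3120 FPM at pH 6.0, with 2 to 5 of 12 at 0. Their part in the difference of the mitotic genes was not tested.

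Tpx2 was among the members that differed at both pH values. At pH 7.4 it was at 5.74, 5.33 and 7.73 FPM in sample group 1 and 16.4, 15.6 and 13.6 FPM in sample group 3, and at pH 6.0 at 7.81, 6.23 and 6.06 against 24.7, 23.4 and 21.6 FPM. The sample groups were apart at each pH, by 1.28 (standard error 0.15, edgeR adjusted p = 5.84e-05) and 1.80 (standard error 0.15, edgeR adjusted p = 5.99e-08) on the log2 scale. The pooled pH change of Tpx2 in NRK-52E cells, 0.48, was not called, while within sample group 3 alone Tpx2 rose by 0.69 (edgeR adjusted p = 0.00118) and within sample group 1 alone it had 0.17 without a call. Top2a was at 13.3, 10.2 and 16.2 against 40.3, 39.4 and 23.6 FPM at pH 7.4 and at 10.5, 6.06 and 7.92 against 27.1, 25.1 and 22.7 FPM at pH 6.0. It too was apart between sample groups, by 1.37 and 1.62, with no call for pH in the pooled test and a fall of 0.63 within sample group 1 alone (edgeR adjusted p = 0.0174). Aurka, Bub1b and Ndc80, not called for pH in the pooled test, rose within sample group 3 alone by 0.51, 0.52 and 0.78, and Espl1 fell within sample group 1 alone by 1.25 on the log2 scale. Ccnb1 was at 4.00, 3.50 and 6.49 against 12.7, 12.4 and 9.68 FPM at pH 7.4 and at 2.50, 1.80 and 1.89 against 6.71, 6.84 and 7.15 FPM at pH 6.0, so that sample group 1 at pH 7.4 and sample group 3 at pH 6.0 lay close to each other. Its log2 differences between sample groups were 1.31 and 1.75 (edgeR adjusted p = 0.00112 and 1.24e-05).

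Among the checkpoint genes, Bub1, Bub1b, Mad2l1 and Ttk were higher in sample group 3 at both pH values, by 0.96 to 1.30 at pH 7.4 and 1.37 to 1.82 at pH 6.0, and Bub3 only at pH 6.0 (0.39). All 4 members of the passenger complex were higher at pH 6.0 (0.47 for Incenp to 1.69 for Birc5), and the anaphase genes Cdc20, Pttg1 and Espl1 were called at pH 6.0 (0.85, 1.80 and 1.52) and not at pH 7.4 (0.61, 0.62 and 0.39). The members not called at either pH were Cdc25b, Cenpk, Kif23, Knl1, Mki67, Ska3 and Spc25. Mki67 had log2 differences of 0.74 and 0.52 that missed the threshold (edgeR adjusted p = 0.0775 and 0.133). Cdc25c, the phosphatase that switches CDK1 on, was at 5.20, 6.99 and 5.30 FPM in sample group 1 and 3.93, 4.52 and 3.26 FPM in sample group 3 at pH 6.0 (-0.58, edgeR adjusted p = 0.0279), a call lost without A025, A036 or A038 (up to 0.144).

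In NRK-52E cells the sample group difference was larger than the pH change in 24 of 43 members at pH 7.4 and in 26 at pH 6.0, with median sizes of 0.81 and 0.90 against 0.63 for pH. The sample group differences rested on 3 against 3 samples and the pH change on 6 against 6, so the former scatter more. This count was not made over all genes and is not read as particular to the members. The pH change was of 1 direction in both sample groups for all 11 members that rose and for 16 of the 17 that fell, the exception being Cdc25b, which was not tested in sample group 3 alone. A call in the pooled test favours a shared direction, and 13 of the 15 members not called had one too. Tested on its own, sample group 1 gave 9 rises and 16 falls among the members, where 29.5% of all genes rose and 31.8% fell. Sample group 3 on its own gave 14 rises and 15 falls, where 29% of all genes rose and 31.6% fell. No member passed the test of a difference of the pH change between the sample groups, where 10.6% of all genes did (3.78% higher and 6.87% lower in sample group 3), 8 members had an unadjusted p under 0.05, and DESeq2 called 4. Summarised per sample as the median over members of log2 FPM minus the member's mean over all samples, NRK-52E cells at pH 7.4 stood at -1.25 to -0.71 in sample group 1 and -0.22 to 0.14 in sample group 3, and at pH 6.0 at -1.21 to -1.04 and -0.35 to -0.21. The sample groups were apart at each pH. Rises and falls with pH offset each other in this median, so it is not read for pH in NRK-52E cells.

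**Figure D3:**
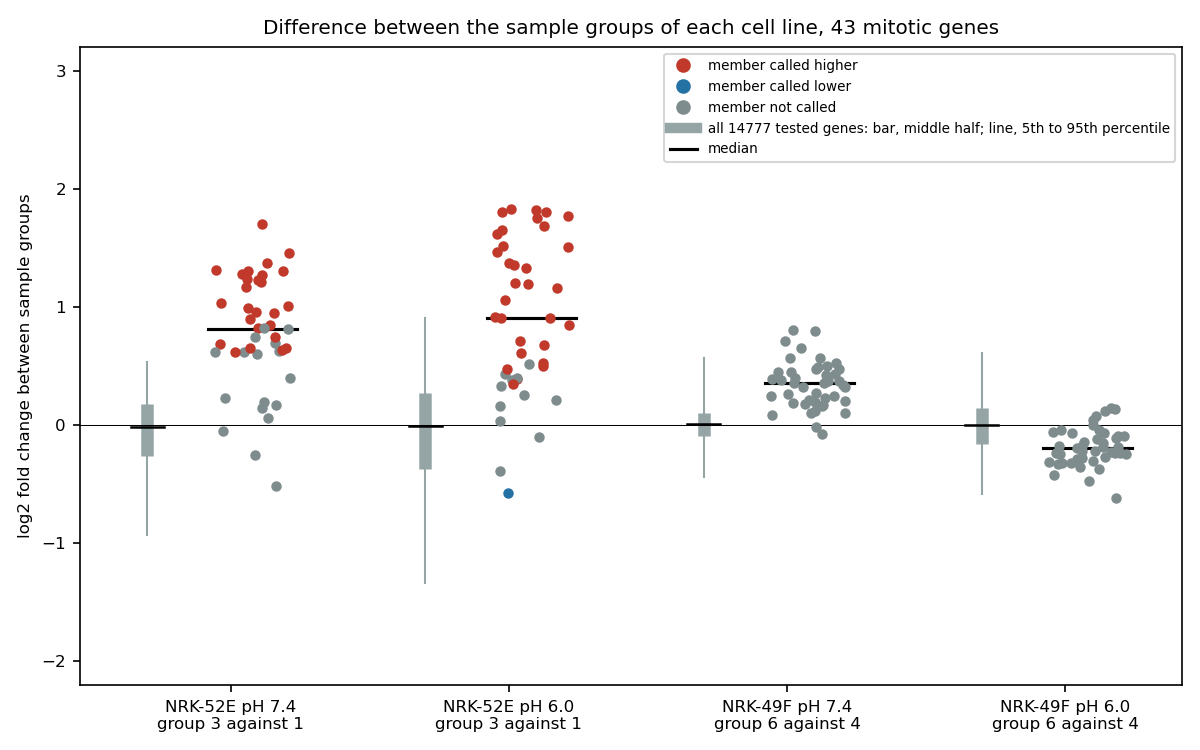
Log2 fold change between the sample groups of each cell line at each pH for the 43 members (points, coloured by call, median as a black line) beside the distribution over all 14777 genes tested (grey bar and line). The members of NRK-52E cells centre on 0.81 at pH 7.4 and 0.90 at pH 6.0, those of NRK-49F cells on 0.36 and -0.19, and all genes close to 0.

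NRK-49F cells showed no such difference past the threshold. Between sample groups 6 and 4, no member was called at pH 7.4, where 0% of all genes were called by edgeR, or at pH 6.0, where 0.0338% were (0.0271% higher and 0.00677% lower). At pH 7.4, 41 of 43 members lay above 0 (median 0.36), 18 had an unadjusted p under 0.05 and DESeq2 called 1. At pH 6.0, 5 lay above 0 (median -0.19), 1 had an unadjusted p under 0.05 and DESeq2 called 0. The pH change did not differ between these sample groups in any member by edgeR, with a median difference of -0.51, 17 at an unadjusted p under 0.05, 0 called by DESeq2 and 0% of all genes called. The sample group difference exceeded the pH change in 2 and 1 of 43 members, a count also not made over all genes. Within sample group 4 alone 29 members rose and none fell, where 4.73% of all genes rose and 3.97% fell. Within sample group 6 alone 21 rose and none fell, where 7.88% of all genes rose and 8.09% fell. All 33 members that rose in the pooled test had a change above 0 in both, as had 9 of the 10 not called. The per-sample summary was 0.058 to 0.42 at pH 7.4 and 0.93 to 1.36 at pH 6.0, so that all 5 acid samples stood above all 6 controls.

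**Figure D4:**
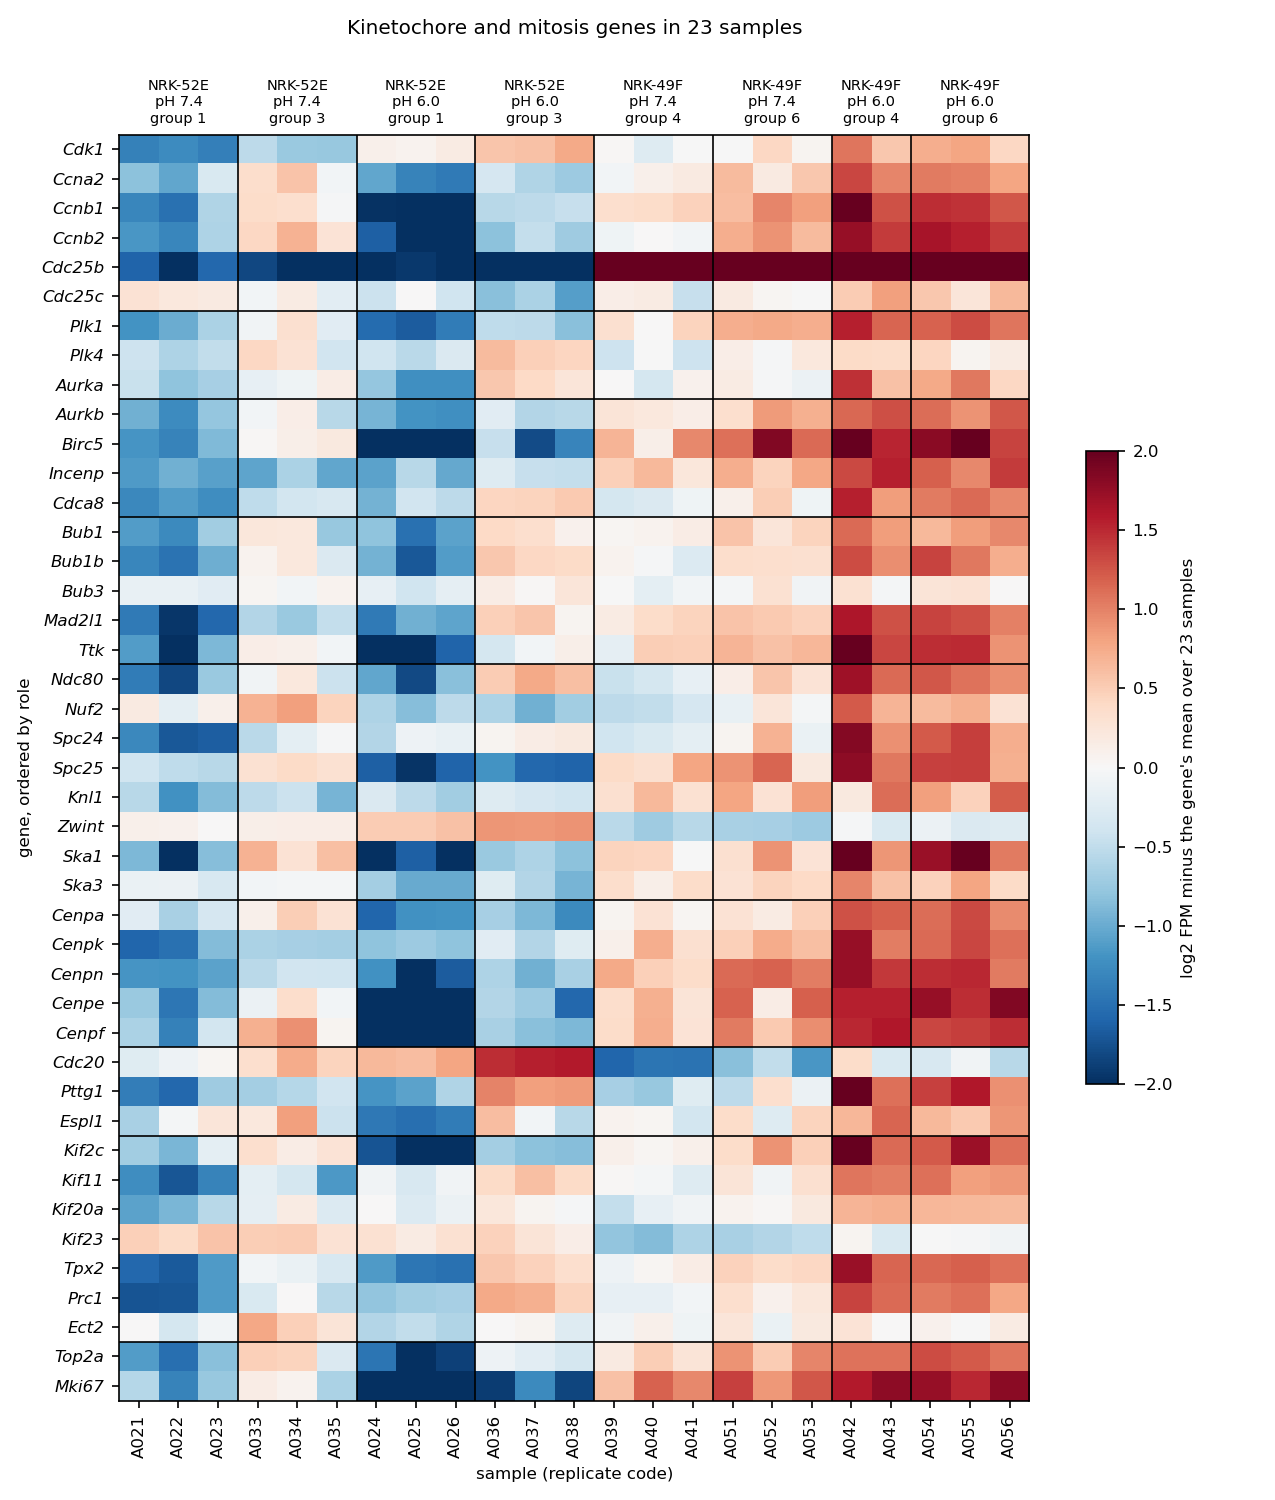
Log2 FPM of each of the 43 members minus its mean over 23 samples (colour, limited to -2 and 2, which rows such as Cdc25b, Birc5, Cenpf and Mki67 exceed), with genes as rows ordered by role and samples as columns ordered by cell line, pH and sample group. Within NRK-52E cells the step between sample groups 1 and 3 is visible at both pH values, and NRK-49F cells at pH 6.0 are the reddest block, while Cdc20 and Kif23 are higher in NRK-52E cells.

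Between the cell lines, most members were lower in NRK-52E cells. The sample groups are nested in the lines, so line and sample group cannot be told apart here. At pH 7.4, 24 members were lower and 4 higher in NRK-52E cells, where 33.9% of all genes were lower, 35% higher and 68.8% called, with medians of -0.70 over members and 0.024 over all genes. Without A021, A022 and A033, which left the sample groups of NRK-52E cells unequal in number, 14 were lower and 4 higher, with no share of all genes to set beside them here. At pH 6.0, 37 were lower and 3 higher, where 38.9% of all genes were lower, 36.6% higher and 75.5% called, with medians of -1.44 and -0.020. Cdc20, Zwint and Kif23 were higher in NRK-52E cells at both pH values, by 1.35, 0.74 and 1.12 at pH 7.4 and 1.31, 0.91 and 0.34 at pH 6.0. Nuf2 was higher in NRK-52E cells at pH 7.4 (0.57) and lower at pH 6.0 (-1.44). Cdc25b differed most, by -4.80 and -7.03 on the log2 scale, and Mki67 by -1.48 and -3.58. Cdk1 was lower at pH 7.4 (-1.02, edgeR adjusted p = 4.97e-06), while at pH 6.0, at 46.4 to 75 FPM in NRK-52E and 58.8 to 93.4 FPM in NRK-49F cells, its difference of -0.33 missed the threshold (edgeR adjusted p = 0.0733).

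Genes that work beside the members are given next to the shares of all genes, of which 24.7% rose and 36.6% fell in the NRK-52E line, while the NRK-49F line had 14.5% rising and 14.4% falling. Of 29 other centromere and kinetochore genes, 4 rose and 14 fell in NRK-52E cells, and 17 rose and 3 fell in NRK-49F cells. Cenpm, of the inner kinetochore, rose most in both (log2 fold changes 2.36 and 1.85), and Mad1l1, the kinetochore anchor of MAD2, fell most in both (-2.58 and -0.51). Of 26 other spindle and cytokinesis genes tested, 7 rose and 2 fell in NRK-52E cells and 17 rose and none fell in NRK-49F cells. The largest changes there were the rise of Gtse1, a regulator of spindle fibres and of p53 (3.11), the fall of Kif4a (-1.15), and in NRK-49F cells the rise of Hmmr (1.38). Of 21 S-phase genes, 1 rose, Fen1 (0.85), and 12 fell in NRK-52E cells, most in Gins2 (-1.77), while 7 rose and none fell in NRK-49F cells, most in Rrm2 (0.85). The helicase gene Mcm2 fell in NRK-52E cells (-0.74), whereas Pcna (0.30 and 0.31) and Ccne1 (0.58 and 0.041) were called in neither line.

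Among the cell cycle transcription regulators the calls in either direction were near the shares of all genes, 61.2% in NRK-52E and 28.9% in NRK-49F cells. Of 17 cell cycle transcription regulators tested, 7 rose and 4 fell in NRK-52E cells, with Rb1 highest (1.10) and the repressor E2f8 lowest (-1.92), and 3 rose and 1 fell in NRK-49F cells, with Lin37 (0.62) and Tfdp1 (-0.39). Mybl2, which encodes B-MYB, rose in NRK-52E cells (0.75, edgeR adjusted p = 0.0184), and Rbl2, the DREAM pocket protein p130, was called in neither line (-0.28 and -0.25). Of 13 genes of G0 arrest and p53 targets tested, 10 rose and 2 fell in NRK-52E cells, where 24.7% of all genes rose and 36.6% fell. Of them, 3 rose and 2 fell in NRK-49F cells, where 14.5% of all genes rose and 14.4% fell. In NRK-49F cells Btg1 rose most (1.05) and Plk2 fell most (-1.27), and Sesn1 fell most in NRK-52E cells (-0.40).

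Cdkn1a, which encodes the CDK inhibitor p21, had the largest rise of these lists in NRK-52E cells. It was at 19.6, 13.2 and 13.7 FPM in sample group 1 and 15.1, 21.8 and 20.8 FPM in sample group 3 at pH 7.4, and at 207, 190.4 and 200.1 and then 532, 549.5 and 539 FPM at pH 6.0. Both sample groups rose without overlap, by 4.41 on the log2 scale (standard error 0.27, edgeR adjusted p = 2.14e-12). The rise was larger in sample group 3 by 1.14 (standard error 0.20, edgeR adjusted p = 0.000853). Sample group 3 was also the sample group with the higher mitotic genes at pH 6.0. In NRK-49F cells Cdkn1a was at 271 to 327 FPM and then at 415, 327, 331, 349.7 and 313 FPM, a log2 fold change of 0.19 that was not called. Marker genes of other cell types moved with pH as well: 10 of 11 fibroblast markers tested fell in NRK-52E cells, where 36.6% of all genes fell. Lum, Prrx1 and Twist1 were low there already at pH 7.4, with means of 0.546, 0.897 and 0.732 FPM. The 6 immune cell markers of the NRK-49F samples summed to 122 to 138 FPM at pH 7.4 and 294 to 342 FPM at pH 6.0, with 2 to 3 at 0 at pH 6.0. The higher sum came from Cd68, a lysosomal protein of macrophages, which went from 29.9 ± 4.21 (SD, n = 6) to 229 ± 13.8 FPM (SD, n = 5). Cd14 went the other way, from 100.5 ± 9.51 (SD, n = 6) to 81.8 ± 5.16 FPM (SD, n = 5). Ptprc, Csf1r, Cd3e and Cd79a were at or below 0.764 FPM in every NRK-49F sample, so the markers did not rise as a set. The part of these marker genes in the changes of the mitotic genes was not tested.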

How the data were processed

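The authors trimmed the reads, aligned them with HISAT2 (version 2.1.0 per the labels) and deposited 1 table of raw counts per gene made with featureCounts on Ensembl annotation, counting multi-mapping reads, so that reads of near-identical copies may be shared. The study's methods name the rat build rn7 and the submitters' processing notes rn6. The strand setting is not given in the sources used here. The 23 columns whose names match a labelled rat sample were used, and 13 further columns of values were not. Genes were filtered with filterByExpr (minimum count 10, minimum total 15), scaled by TMM and tested with edgeR 4.0.16 in R 4.3.3 (quasi-likelihood test, Benjamini-Hochberg adjustment over all genes tested, threshold 0.05). Cell line and pH comparisons used 1 model of 4 conditions with 19 residual degrees of freedom, and sample group comparisons 1 of 8 conditions with 15. A standard error is the size of the log2 fold change divided by the square root of its F value. Alternatives were DESeq2 1.42.0, RLE and upper quartile scaling, no filter, thinned libraries, each line alone, sample group as a term and each sample left out. The members and lists were chosen with earlier results of these data known. All members are named, and of each other list the called genes with the largest rise and fall per line, beside Mybl2, Cdkn1a, Rbl2, Mcm2, Pcna and Ccne1. Tested on counts simulated from the NRK-52E samples for the pH comparison, over 14471 genes, the script called 54 of 100 genes changed by 0.5 and 94 of 100 changed by 1 on the log2 scale. For sample group 3 against 1 of NRK-52E cells at pH 7.4 it called 21 and 77 of 100. The pH simulation held no sample group difference, and only genes above a set mean count were changed. Recovery for genes that differ between sample groups, as many members did, was not tested. Figures were drawn with matplotlib 3.10.9.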

Additional observations from a re-analysis of the deposited data

Results flagged for a closer look

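Among 172 sets of values (1 member in 1 line at 1 pH), 8 had a sample far from the others by Dixon's test, where chance gives about 1 in 20 sets. Among the NRK-49F controls these were Bub3 and Spc24 in A052, high at 70.5 and 14.2 FPM, Cdc25c in A041, low at 5.07 FPM, and Ttk in A039, low at 4.13 FPM. Among the NRK-49F samples of pH 6.0 they were Ccnb1 and Tpx2 in A042, high at 40.1 and 56.3 FPM. Among the NRK-52E controls they were Incenp in A034, high at 10.1 FPM, and Ska3 in A023, low at 6.98 FPM.

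The pH change differed between the cell lines in 23 members by the edgeR contrast, given here as the log2 fold change in NRK-52E minus that in NRK-49F cells. It was 0.69 for Cdk1. For the cyclins and phosphatases it was -1.51 (Ccna2), -1.77 (Ccnb1), -2.24 (Ccnb2), -2.23 (Cdc25b) and -1.17 (Cdc25c). For kinases and the passenger complex it was -1.37 (Plk1), -0.95 (Aurkb), -2.15 (Birc5) and -1.32 (Ttk). For the outer kinetochore it was -2.01 (Nuf2), -2.18 (Spc25), -2.43 (Ska1) and -0.93 (Ska3), and for the centromere -2.05 (Cenpa), -0.96 (Cenpn), -1.96 (Cenpe) and -2.32 (Cenpf). The remaining values were -1.31 (Espl1), -2.31 (Kif2c), -0.78 (Kif23), -0.58 (Ect2) and -2.09 (Mki67). The differences of Ttk and Ect2 lost their call without any of 16 and 11 single samples (edgeR adjusted p up to 0.0948 and 0.0822).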

How the results depend on the processing

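No direction of a count was reversed. The NRK-49F count of 33 rises was 21 in sample group 6 alone. Between the lines at pH 7.4, 18 members were called without the 3 samples with Col1a2 (an alternative chosen after seeing the data), and between the NRK-52E sample groups at pH 7.4 that alternative left 0. DESeq2 called 1 member between the NRK-49F sample groups at pH 7.4 and 4 for the difference of the pH change between the NRK-52E sample groups, where NRK-52E samples alone gave 5. The causes were not tested. Leaving out single samples gave 24 to 29 calls for pH in NRK-52E, 24 to 36 for pH in NRK-49F cells, 21 to 25 for the difference between the lines, 22 to 31 and 39 to 42 between the lines at pH 7.4 and 6.0, and 14 to 28 and 27 to 32 between the NRK-52E sample groups. It gave 0 to 4 for the difference of the pH change between the NRK-52E sample groups and 0 to 1 (without A043) in NRK-49F cells. The counts under the other alternatives stayed within 1.5 times. No paired analysis was possible because the groups share no replicate codes. Cdc25b and Foxm1 in NRK-52E cells were limited by depth.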

Other observations

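Of 18 condensin and cohesin subunits, 5 rose and 8 fell in NRK-52E cells, with Ncapg2 at 1.09 and Ncaph, a subunit of the other condensin, at -1.44, and 6 rose and 1 fell in NRK-49F cells, with Ncaph at 0.71 and Stag1 at -0.51. Of 16 genes of the anaphase-promoting complex and its partners tested, 6 rose and 4 fell in NRK-52E cells, with Ube2s, its chain-building enzyme, at 0.96 and Fbxo5, its inhibitor, at -0.75, and 2 rose and 1 fell in NRK-49F cells, with Anapc7 at 0.70 and Anapc2 at -0.29. The median log2 fold change of the condensin and cohesin list was -0.19 for NRK-52E and 0.054 for NRK-49F cells, that of the anaphase-promoting complex list -0.0085 and 0.048, and that of all genes -0.12 and 0.00088.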
